A study of Mus musculus with 12 samples.

Results

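The genes described here are 33 that belong to the erythroid and megakaryocyte programs of mouse bone marrow: 18 erythroid genes and 15 genes of megakaryocytes and platelets, out of 24028 genes counted. They were taken from a list of symbols, matched to the NCBI gene IDs of the deposited counts, and all 33 had a row. RNA was sequenced in 12 libraries from C57BL/6 bone marrow, 3 in each of 4 groups. The wt LSK group held cells of control mice (genotype wild type/control), depleted of cells with lineage markers and sorted by c-Kit and Sca-1, a fraction that holds stem cells and early progenitors. The remaining groups came from iMLL-ENL mice, which carry a doxycycline-inducible knock-in of the leukemia fusion MLL-ENL and received doxycycline up to acute leukemia. They are iMLL-ENL total (leukemic cells of whole marrow), B220 LOW and B220 HIGH (leukemic cells sorted for little or much of the surface marker B220). The labels do not say whether the control mice were given doxycycline, which cells express the fusion, or how old the mice were. They give 3 animals per genotype and no animal for a library, so p-values reflect only how libraries vary, which may in part be technical.

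Red cells and platelets arise from progenitors that share a set of transcription factors. GATA1, with its cofactor FOG1 (encoded by Zfpm1), drives both lineages, KLF1 turns on red cell genes such as those of globin, heme and membrane proteins, and GFI1B and NF-E2 act in both. Erythroid cells depend on erythropoietin and its receptor, megakaryocytes on thrombopoietin, and many stem cells also carry megakaryocyte transcripts.

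The wt LSK libraries held 18227843 to 19607722 counts, those of iMLL-ENL total 18001563 to 22706882, those of B220 LOW 13441696 to 16626820 and those of B220 HIGH 10921521 to 20069503. Levels are CPM, counts scaled to the library total, and 3 counts over a group's libraries correspond to 0.0531 CPM in wt LSK, 0.0482 in iMLL-ENL total, 0.0662 in B220 LOW and 0.0591 in B220 HIGH. Kit and Ly6a (Sca-1), the genes of the LSK sort, had 1050 to 1350 and 32.5 to 82.1 CPM in wt LSK, against 88.3 to 151 and 1.497 to 2.22 CPM in iMLL-ENL total. Ptprc, which encodes B220 among other isoforms of CD45, had 534 to 600 CPM in B220 HIGH and 241 to 610 CPM in B220 LOW. Gene counts do not separate its isoforms. Kmt2a and Mllt1, the genes of the fusion partners, stood at 324 to 566 and 26.2 to 39.5 CPM in iMLL-ENL total against 1143 to 1532 and 40.1 to 44.0 CPM in wt LSK, and these counts do not part fusion reads from normal ones. Some leukemic libraries stood apart in markers of other cells: the summed level of 11 mature neutrophil markers ran from 1352 to 13030 CPM in iMLL-ENL total, from 841 to 3728 in B220 LOW and from 201 to 16680 in B220 HIGH, against 25.1 to 168 in wt LSK. In bulk RNA, fewer cells of a type and less RNA per cell cannot be told apart.

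Promoter sequences are shown for the 4 subunits of the platelet receptor for von Willebrand factor, GPIb-IX-V, because the 4 genes of this receptor were not all called the same way below. Each runs from 250 bases before to 50 after the RefSeq start of the gene (GRCm38.p6), 5′ to 3′ on the strand of the gene, with matches to GATA and ETS letters in capitals. The windows are chr11:70638872-70639171 (plus strand) for Gp1ba, chr16:18622354-18622653 (minus strand) for Gp1bb, chr16:30310732-30311031 (minus strand) for Gp5 and chr6:87777820-87778119 (plus strand) for Gp9.
Gp1ba: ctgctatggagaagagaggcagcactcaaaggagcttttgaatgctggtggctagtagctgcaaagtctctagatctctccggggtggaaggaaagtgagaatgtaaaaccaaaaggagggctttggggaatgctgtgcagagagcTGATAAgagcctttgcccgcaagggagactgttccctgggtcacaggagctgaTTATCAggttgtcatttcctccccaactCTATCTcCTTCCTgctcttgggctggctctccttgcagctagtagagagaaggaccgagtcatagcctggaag
Gp1bb: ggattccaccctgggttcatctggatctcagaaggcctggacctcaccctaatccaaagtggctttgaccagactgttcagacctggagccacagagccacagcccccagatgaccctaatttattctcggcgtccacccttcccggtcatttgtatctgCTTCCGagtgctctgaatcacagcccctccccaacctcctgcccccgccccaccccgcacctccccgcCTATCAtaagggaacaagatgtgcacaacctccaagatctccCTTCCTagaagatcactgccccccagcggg
Gp5: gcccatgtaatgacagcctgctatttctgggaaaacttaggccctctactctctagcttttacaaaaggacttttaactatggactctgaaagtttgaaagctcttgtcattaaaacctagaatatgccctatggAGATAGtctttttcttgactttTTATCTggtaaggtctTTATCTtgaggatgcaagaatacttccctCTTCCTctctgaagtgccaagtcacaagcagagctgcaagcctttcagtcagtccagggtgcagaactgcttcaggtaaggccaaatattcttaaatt
Gp9: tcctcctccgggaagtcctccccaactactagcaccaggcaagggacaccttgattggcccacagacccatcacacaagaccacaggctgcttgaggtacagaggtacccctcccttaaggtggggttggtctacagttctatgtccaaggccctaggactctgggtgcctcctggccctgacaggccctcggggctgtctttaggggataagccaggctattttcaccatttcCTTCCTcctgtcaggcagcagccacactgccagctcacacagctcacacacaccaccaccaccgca

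The motifs were searched on both strands. The GATA letters are GATA preceded by A or T and followed by A or G, the ETS letters are GGAAG preceded by A or C, and the KLF letters are CCNCNCCC. The promoter of Gp1ba held 3 GATA matches, that of Gp5 held 3, that of Gp1bb 1 and that of Gp9 0, while ETS matches numbered 1, 1, 2 and 1. RefSeq promoters were matched for 25 of the 33 genes. GATA letters were found in 16 of these 25, against 29.6% of all 32544 promoters of the same length. ETS letters were found in 12 of 25 (46.3% of all promoters) and KLF letters in 15 of 25 (49.7%). A match describes letters and does not show that a factor binds there.

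The main comparison set leukemic marrow against LSK cells, and most of the erythroid and platelet genes were far lower in leukemic marrow. Of the 33 genes, 26 passed the filter on low counts, and edgeR's quasi-likelihood test (Benjamini-Hochberg adjusted p under 0.05 over all 13811 genes tested) called 19 lower, 1 higher (Gp1bb) and 6 neither. Over all genes, 15.1% were called lower, 15.5% higher and 30.6% in either direction. The median log2 fold change of the 26 was -3.91, against 0.05 over all genes tested. Among erythroid genes 11 of 14 tested were lower (median -4.50), and among megakaryocyte and platelet genes 8 of 12 were lower and 1 higher (median -3.60). The filter asks for about 0.523 CPM in as many libraries as 1 group holds. None of the 19 lower genes reached this level in every leukemic library, so all 19 passed the filter through wt LSK. In 10 of the 19, every leukemic library was below the level, so these genes had to differ. The counts called and the medians of the genes tested are thus not free of the filter. In 21 of the 26, every leukemic library lay below every wt LSK library, as in 29.5% of all genes tested. The wt LSK sort itself selects progenitors, so the difference lies between 2 cell populations, and leukemia, genotype, sort and doxycycline cannot be told apart.

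**Figure D1:**
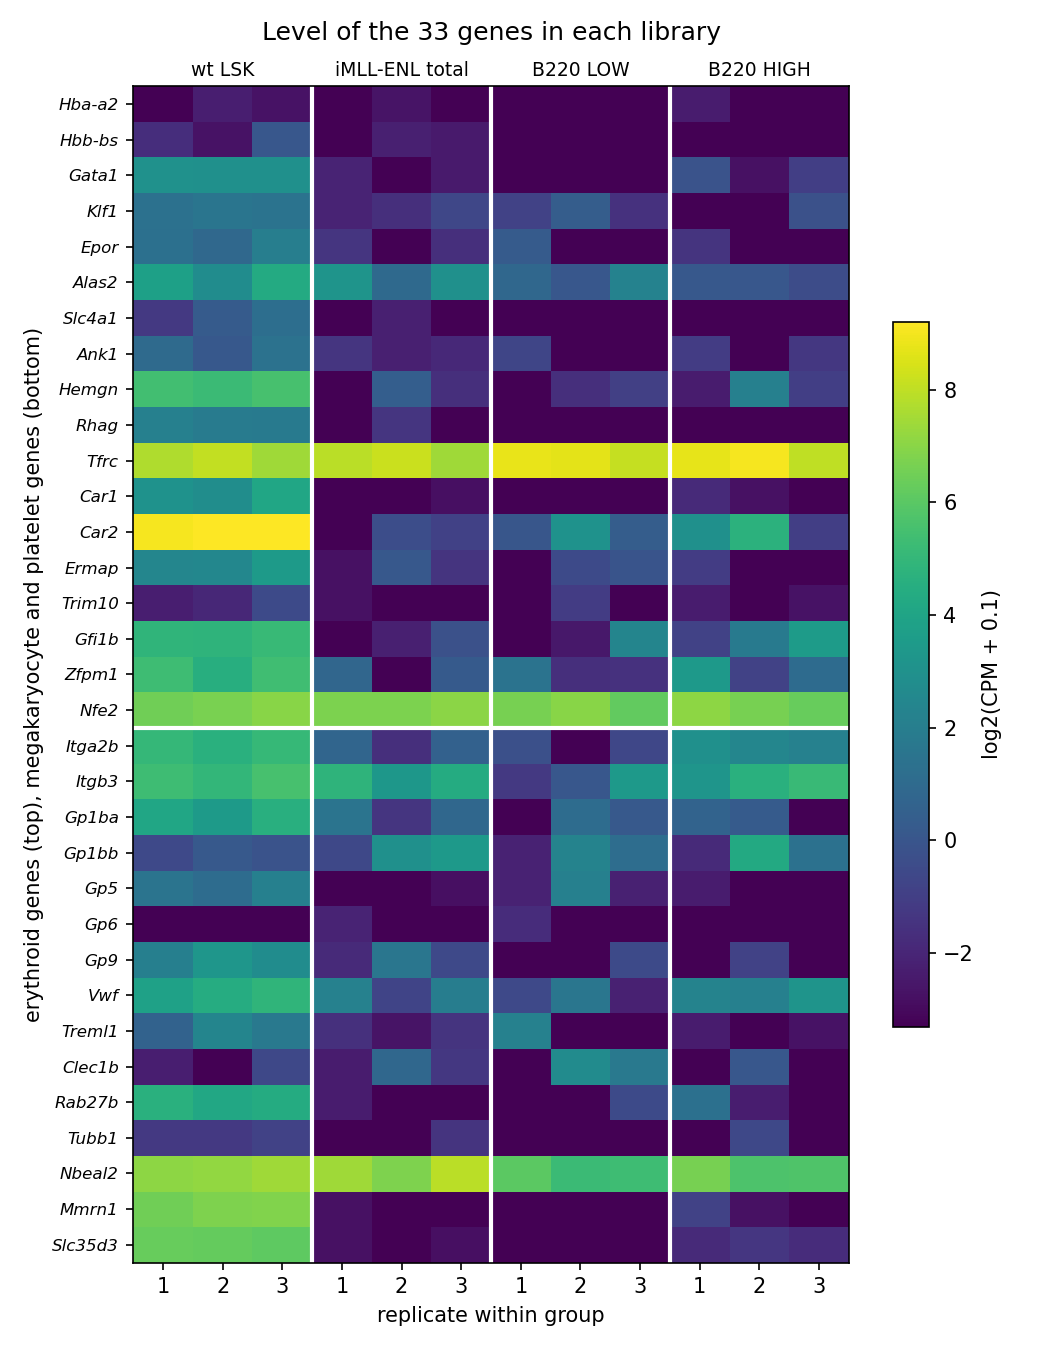
Level of each of the 33 genes (rows) in each of the 12 libraries (columns, replicates 1 to 3 of each group) as log2(CPM + 0.1), with erythroid genes above the white line and megakaryocyte and platelet genes below it. Most rows are bright in wt LSK and dark in the 3 leukemic groups, and Tfrc, Nfe2 and Nbeal2 are bright in every library.

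Among the transcription factors of the 33, Gata1, Zfpm1, Gfi1b and Klf1 were lower in leukemic marrow and Nfe2 was not called. Gata1 (NCBI gene 14460, chromosome X, 7959260 to 7976663, GRCm38) had 8.11, 7.68 and 7.85 CPM in the wt LSK replicates 1, 2 and 3, and 0.139, 0 and 0.0881 CPM in iMLL-ENL total. Its log2 fold change was -6.39 (SE 0.76, edgeR adjusted p = 0.000573), with the wt LSK libraries within a narrow range and all leukemic libraries near 0. Zfpm1, which encodes the GATA1 cofactor FOG1 (gene 22761, chromosome 8, 122281856 to 122337862), had 39.8, 23.4 and 41.0 CPM in wt LSK and 1.67, 0 and 1.06 CPM in iMLL-ENL total. The groups did not overlap, and Zfpm1 fell by 5.08 (SE 0.92, edgeR adjusted p = 0.00445).

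Gfi1b, a repressor needed for both red cells and platelets (gene 14582, chromosome 2, 28609450 to 28621982), had 29.0, 28.7 and 34.8 CPM in wt LSK and 0, 0.111 and 0.749 CPM in iMLL-ENL total. Its change was -6.50 (SE 0.92, edgeR adjusted p = 0.00137), and iMLL-ENL total replicate 3 held most of its leukemic counts, since without that library the change was -8.99. Klf1, the red cell master regulator (gene 16596, chromosome 8, 84901982 to 84905291), was low even in wt LSK, at 2.47, 2.80 and 2.65 CPM, and had 0.139, 0.222 and 0.529 CPM in iMLL-ENL total. Klf1 fell by 2.95 (SE 0.71, edgeR adjusted p = 0.0147), a call that did not hold without wt LSK replicate 1 (adjusted p = 0.0569) or 3 (0.0660). Nfe2, the factor of late megakaryocytes that also acts in red cells (gene 18022, chromosome 15, 103248212 to 103258403), stayed abundant: 91.5, 103 and 125 CPM in wt LSK and 107, 108 and 132 CPM in iMLL-ENL total, with overlapping groups (log2 fold change 0.28, SE 0.20, edgeR adjusted p = 0.325). Hemgn, which encodes the nuclear protein hemogen of blood progenitors (gene 93966, chromosome 4, 46393989 to 46404183), went from 43.1, 37.0 and 47.2 CPM to 0, 1.22 and 0.220 CPM. Its change was -6.36 (SE 0.95, edgeR adjusted p = 0.00195). Leaving out iMLL-ENL total replicate 2, the library with most of its leukemic counts, gave -8.32.

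Among 18 further transcription factors of these lineages, all 18 of them tested, 10 were lower and 5 higher. Tal1, a partner of GATA1 in erythroid complexes, had 151, 169 and 153 CPM in wt LSK, and 0, 0.722 and 0 CPM in iMLL-ENL total (log2 fold change -9.32, SE 0.94, edgeR adjusted p = 0.000341). Every leukemic count of Tal1 came from 1 library, and without it the fitted change was -14.57. Sox6, which aids red cell maturation, had 52.3, 55.0 and 74.1 CPM in wt LSK and at most 0.167 CPM in iMLL-ENL total (log2 fold change -9.04, SE 0.59, edgeR adjusted p = 4.19e-05). In the other direction went E2f2, a cell cycle factor that acts in erythroblasts, with 21.6 to 28.7 CPM in wt LSK and 60.7 to 88.4 CPM in iMLL-ENL total (log2 fold change 1.65, SE 0.23, edgeR adjusted p = 0.00131). Lyl1, a relative of Tal1, rose by 1.35 (SE 0.24, edgeR adjusted p = 0.00354), from 40.3, 67.5 and 47.5 CPM to 127, 136 and 91.6 CPM, but did not pass when the test required a fold of at least 2 (adjusted p = 0.137).

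The receptor gene for the red cell growth factor was also low in leukemic marrow. Epor, the erythropoietin receptor gene (gene 13857, chromosome 9, 21958897 to 21963576), had 2.36, 1.76 and 3.98 CPM in wt LSK and 0.278, 0 and 0.220 CPM in iMLL-ENL total. It fell by 3.79 (SE 0.96, edgeR adjusted p = 0.0178), a call lost without wt LSK replicate 1 (adjusted p = 0.0623) or 3 (0.0900). On a list of 13 tested genes of erythropoietin and thrombopoietin signalling, 6 were lower and 2 higher. Socs2, an inhibitor of cytokine signalling, fell by 5.39 (SE 0.61, edgeR adjusted p = 0.000435), from 11.8, 9.33 and 6.78 CPM to 0.232, 0.278 and 0.0881 CPM. The 2 higher genes act in many blood cells: Lyn, a kinase, rose by 1.81 (SE 0.29, edgeR adjusted p = 0.00222) and Ptpn6, a phosphatase, by 1.495 (SE 0.23, edgeR adjusted p = 0.00196, or 0.0526 where a fold of at least 2 was required).

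The carbonic anhydrases, early markers of erythroid commitment that hydrate carbon dioxide, showed some of the steepest falls. Car2 (gene 12349, chromosome 3, 14886269 to 14900770) was the most abundant of the 33 genes in wt LSK at 529, 593 and 589 CPM, or 319 CPM per kilobase of deposited gene width, and had 0, 0.667 and 0.440 CPM in iMLL-ENL total. It fell by 10.45 (SE 0.71, edgeR adjusted p = 6.33e-05). Car1, on the same chromosome (gene 12346, 14766214 to 14808365), had 8.27, 7.02 and 16.9 CPM in wt LSK, 614 counts in all, and 1 count in iMLL-ENL total. The ratio was 678 (counting interval 121 to 26800, edgeR adjusted p = 0.000287). In both genes all leukemic libraries were close to 0. Intervals here are exact binomial at 95% and cover counting error only. Where a group had 0 counts, folds were taken with that 0 set to 3 counts and leave out the counting error of the other group. Fitted log2 changes of genes with so few counts depend on the prior count.

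Rhag, Ermap and Ank1 were low in wt LSK and lower in leukemic marrow. Rhag, which encodes the Rh-associated glycoprotein (gene 19743, chromosome 17, 40811099 to 40844094), had 4.24, 3.57 and 3.32 CPM in wt LSK and 0, 0.278 and 0 CPM in iMLL-ENL total. It fell by 5.20 (SE 1.16, edgeR adjusted p = 0.0102), and all its leukemic counts came from 1 library, without which the change was -9.16. Ermap, which carries the Scianna blood group antigens (gene 27028, chromosome 4, 119175457 to 119190013), had 5.21, 5.49 and 11.2 CPM in wt LSK and 0.0463, 0.9999 and 0.264 CPM in iMLL-ENL total. Its groups did not overlap, and the change of -3.92 (SE 0.91, edgeR adjusted p = 0.0126) lost its call without wt LSK replicate 3 (adjusted p = 0.0617) and was -5.31 without iMLL-ENL total replicate 2. Ank1, the ankyrin that ties the cell membrane to its skeleton (gene 11733, chromosome 8, 22974836 to 23150501), had 1.93, 0.988 and 2.55 CPM in wt LSK and 0.278, 0.111 and 0.176 CPM in iMLL-ENL total. Ank1 fell by 3.08 (SE 0.76, edgeR adjusted p = 0.0158), a call lost without wt LSK replicate 1 (adjusted p = 0.0660) or 3 (0.0936). Its exons overlap those of the antisense gene Gm15816 by 862 bases and the kit does not keep strand, though Gm15816 had at most 0.494 CPM in any library.

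Slc4a1, the band 3 anion exchanger of mature red cells, did not pass the filter. It had 0.322, 1.10 and 2.24 CPM in wt LSK and 70 counts against 2 (ratio 38.6, counting interval 10.3 to 325). Trim10, an erythroid ubiquitin ligase gene, had 17 wt LSK counts and 1 leukemic count, also below the filter (ratio 18.8, counting interval 2.94 to 784). Of 12 further membrane and skeleton genes tested, 7 were lower, none was higher and 5 were not called. Gypc (glycophorin C) fell by 2.22 (SE 0.25, edgeR adjusted p = 0.000414), from 85.8, 77.8 and 81.8 CPM to 13.6, 20.6 and 13.3 CPM.

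Globin transcripts, which dominate red cell RNA, were close to absent from all 12 libraries. Hba-a2 had 3 counts in wt LSK, 1 in iMLL-ENL total, 0 in B220 LOW and 1 in B220 HIGH, and Hbb-bs had 24, 4, 0 and 0 counts. Neither passed the filter. Both have near-identical copies (Hba-a1 and Hbb-bt) that are not analysed here, so counting could have dropped shared reads. The other 5 globin genes with a row had a summed level of at most 0.111 CPM in any library.

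Heme synthesis genes did not share this pattern, and only 1 of the 2 genes for its first enzyme was called. Alas2, the erythroid 5-aminolevulinate synthase (gene 11656, chromosome X, 150547417 to 150570622), had 13.6, 6.80 and 20.3 CPM in wt LSK and 8.90, 1.83 and 7.66 CPM in iMLL-ENL total. The groups overlapped and Alas2 was not called (log2 fold change -1.0, SE 0.62, edgeR adjusted p = 0.264). Its exons overlap those of Apex2 on the opposite strand by 311 bases, so its counts are uncertain, and Apex2 had 25.4 to 46.0 CPM in wt LSK and 18.8 to 29.1 CPM in iMLL-ENL total. Alas1, the form used in all tissues, had 24.1, 47.6 and 29.5 CPM in wt LSK and 297, 545 and 400 CPM in iMLL-ENL total, with every leukemic library above every LSK library. It rose by 3.79 (SE 0.33, edgeR adjusted p = 0.000125).

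On a list of 12 genes of heme synthesis and handling that holds Alas1, 5 were higher, 1 lower and 6 neither, with a median log2 change of 0.49. Hmox1, which breaks heme down, rose by 2.42 (SE 0.34, edgeR adjusted p = 0.00133), from 8.54, 7.96 and 6.32 CPM to 30.7, 27.2 and 51.2 CPM. Alad, the enzyme after the synthases, fell by 1.41 (SE 0.33, edgeR adjusted p = 0.012), from 12.9, 25.0 and 21.2 CPM to 6.49, 6.33 and 6.91 CPM. It was not called without wt LSK replicate 3 (adjusted p = 0.0625) or with a fold of at least 2 required (0.186). Mature neutrophil markers also differed between these groups, with 9 of 11 higher in iMLL-ENL total, and their part in these levels was not tested.

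Tfrc, the transferrin receptor gene that takes up iron (gene 22042, chromosome 16, 32608896 to 32632794), was abundant in every group. It had 210, 266 and 173 CPM in wt LSK and 245, 297 and 173 CPM in iMLL-ENL total, overlapping groups with no call (log2 fold change 0.29, SE 0.24, edgeR adjusted p = 0.392). Of 10 proliferation markers, 4 were higher in iMLL-ENL total, none lower and 6 not called, and their part in the level of Tfrc was not tested. On a list of 11 iron genes, 1 was lower and 1 higher. Tfr2, the second transferrin receptor and a partner of the erythropoietin receptor, had 60.1, 89.1 and 75.8 CPM in wt LSK and 0.278, 0.556 and 0.264 CPM in iMLL-ENL total (log2 fold change -7.53, SE 0.38, edgeR adjusted p = 1.37e-05). Slc40a1, the iron exporter ferroportin, had 3.01, 5.65 and 2.70 CPM in wt LSK and 65.9, 188 and 156 CPM in iMLL-ENL total (log2 fold change 5.34, SE 0.49, edgeR adjusted p = 0.000174). Of the 2 transferrin receptor genes, Tfr2 was thus near 0 in leukemic marrow and Tfrc was not called.

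**Figure D2:**
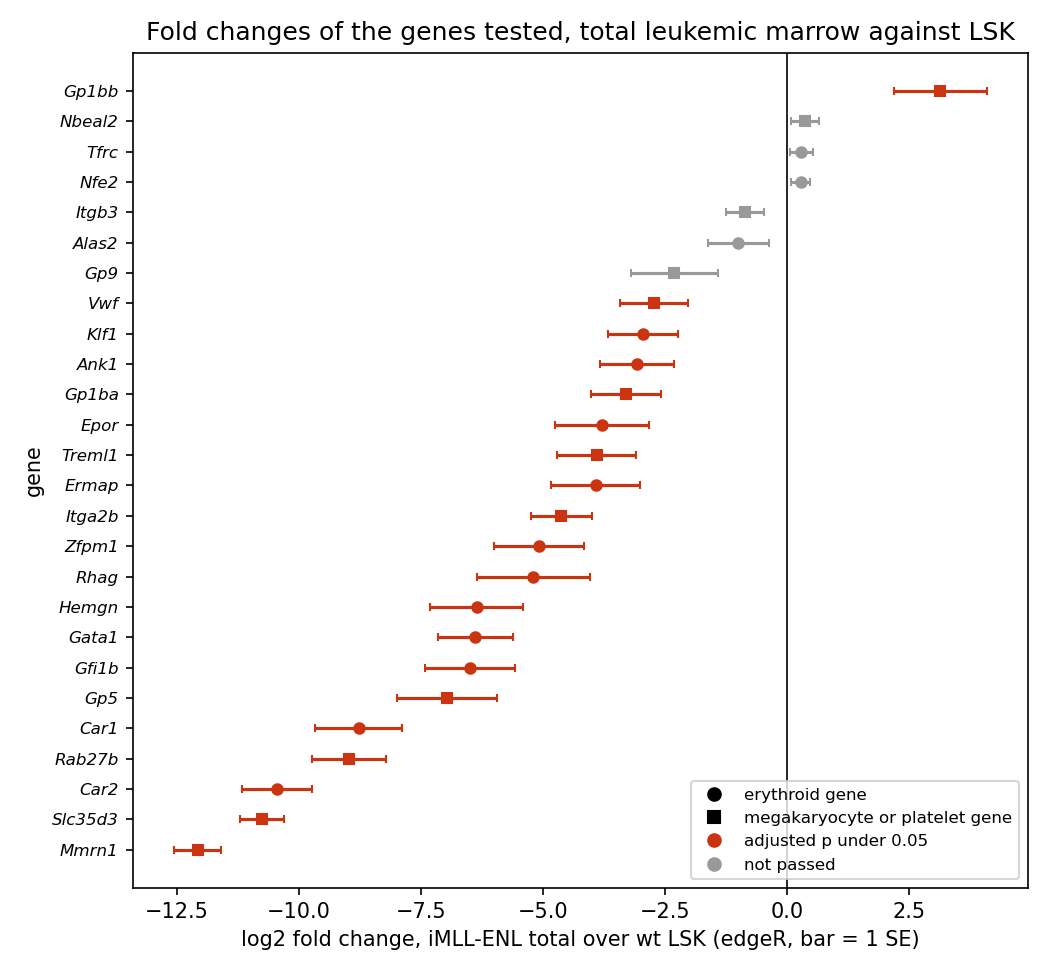
Log2 fold change of iMLL-ENL total over wt LSK for the 26 of the 33 genes that passed the filter (edgeR, bars 1 SE), with circles for erythroid and squares for megakaryocyte and platelet genes, red for an adjusted p under 0.05 and grey otherwise. The 19 lower genes run from Mmrn1 at -12.08 to Vwf at -2.73, and Gp1bb at 3.14 is the one red point above 0.

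Of the 2 chains of the platelet fibrinogen receptor, integrin αIIbβ3, 1 was called lower. Itga2b, the αIIb chain (CD41, gene 16399, chromosome 11, 102453297 to 102469883), had 32.5, 24.4 and 34.0 CPM in wt LSK and 1.62, 0.222 and 1.41 CPM in iMLL-ENL total. It fell by 4.63 (SE 0.62, edgeR adjusted p = 0.00102), with no overlap. Itgb3, the β3 chain, which also pairs with αV in other cells (gene 16416, chromosome 11, 104608000 to 104670476), had 39.3, 31.6 and 47.4 CPM in wt LSK and 28.4, 9.89 and 20.6 CPM in iMLL-ENL total. Each leukemic library lay below each LSK library, but the change of -0.86 (SE 0.38) was not called (edgeR adjusted p = 0.128).

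In GPIb-IX-V, whose promoters are printed above, Gp1ba and Gp5 were lower, Gp9 was not called and Gp1bb was higher. Gp1ba, the chain that binds von Willebrand factor (gene 14723), had 17.0, 11.3 and 23.5 CPM in wt LSK and 2.73, 0.278 and 1.72 CPM in iMLL-ENL total. It fell by 3.29 (SE 0.71, edgeR adjusted p = 0.00914), and the groups did not overlap. Gp5, the outer subunit (gene 14729), had 2.74, 2.09 and 4.33 CPM in wt LSK, 174 counts, and 1 count in iMLL-ENL total. The ratio was 192 with a counting interval of 34.0 to 7626 (edgeR adjusted p = 0.00155).

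Gp9, the subunit that holds the complex together (gene 54368), had 4.14, 9.55 and 6.83 CPM in wt LSK and 0.185, 2.94 and 0.573 CPM in iMLL-ENL total. All leukemic libraries lay below all LSK libraries, and the change of -2.31 (SE 0.89) missed the threshold (edgeR adjusted p = 0.0846). Without iMLL-ENL total replicate 2, the highest leukemic library, it was -3.95 and passed (adjusted p = 0.00448), as it did with DESeq2 (0.0223) and limma-voom (0.0194).

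Gp1bb, the chain linked to GPIbα (gene 14724, chromosome 16, 18620319 to 18622403), had 0.591, 1.04 and 0.816 CPM in wt LSK and 0.556, 7.83 and 10.8 CPM in iMLL-ENL total. Replicate 1 of the leukemic group lay below all LSK libraries and the other two far above. The rise of 3.14 (SE 0.95, edgeR adjusted p = 0.0364) was called in 5 of the 13 alternative settings that tested it. It was lost without any 1 of the wt LSK libraries (adjusted p = 0.138, 0.101 and 0.113 without replicates 1, 2 and 3), without replicate 2 or 3 of iMLL-ENL total (0.0738 and 0.112), with limma-voom (0.233) and with a fold of at least 2 required (0.0939).

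Gp1bb lies inside Septin5, a cytoskeletal gene on the same strand, and 1902 bases of their annotated exons are shared. Reads that lie within the shared bases cannot be assigned to one of them, and how such reads were counted is not given. Septin5 had 0.591, 0.439 and 0.204 CPM in wt LSK and 4.45, 28.3 and 71.2 CPM in iMLL-ENL total (log2 fold change 6.56, SE 1.08, edgeR adjusted p = 0.00304). In the sorted groups Septin5 had 0.393, 7.96 and 7.88 CPM in B220 LOW and 0.366, 43.6 and 5.71 CPM in B220 HIGH, while Gp1bb had 0.131, 4.84 and 2.17 and then 0.183, 19.8 and 2.48 CPM. The leukemic libraries low in one gene were low in the other, and the levels of the 2 genes cannot be told apart by these counts.

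**Figure D3:**
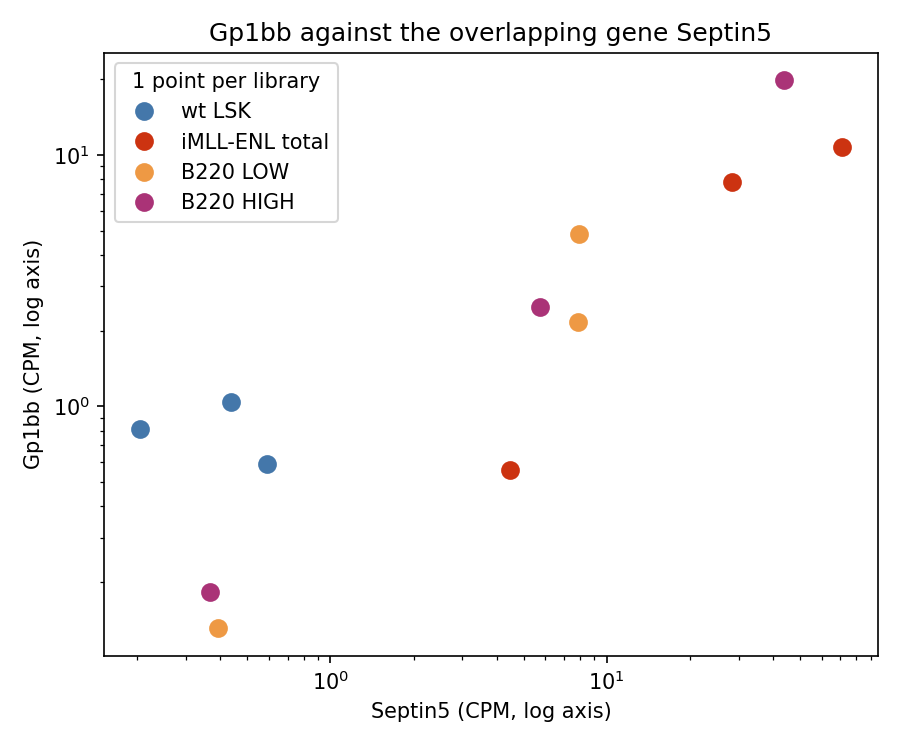
Level of Gp1bb (vertical axis, CPM, log scale) against that of Septin5, the gene whose exons overlap it (horizontal axis, CPM, log scale), with 1 point for each of the 12 libraries coloured by group. Among the leukemic libraries, those with over 20 CPM of Septin5 also hold the 3 highest Gp1bb levels, from 7.83 to 19.8 CPM.

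Vwf, which encodes the large clotting protein bound by GPIb (gene 22371, chromosome 6, 125552948 to 125686679), had 14.5, 21.4 and 29.6 CPM in wt LSK and 4.40, 0.49996 and 3.88 CPM in iMLL-ENL total. It fell by 2.73 (SE 0.69, edgeR adjusted p = 0.0177), with no overlap, but lost its call without wt LSK replicate 3 (adjusted p = 0.0690) or with a fold of at least 2 required (0.0570). Mmrn1, multimerin 1, a carrier of clotting factor V in platelets (gene 70945, chromosome 6, 60944317 to 60989378), had 91.2, 112 and 115 CPM in wt LSK. Its 5995 LSK counts faced 1 leukemic count, for a ratio of 6615 (counting interval 1187 to 261300, edgeR adjusted p = 7.56e-06). Endothelial cells make both proteins too. Of 8 tested markers of marrow stroma and endothelium, 6 were lower in iMLL-ENL total and none higher, while Col1a1, a collagen gene of stroma that did not pass the filter, had 3 wt LSK counts and 167 leukemic ones. The summed level of the 10 listed ran from 252 to 293 CPM in wt LSK and from 97.6 to 118 CPM in iMLL-ENL total. Among them Cdh5, the endothelial cadherin gene, had 4.40, 10.04 and 2.86 CPM in wt LSK and 0.324, 0.9999 and 0.132 CPM in iMLL-ENL total. The part of such cells in these 2 genes was not tested.

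Granule genes went both ways. Slc35d3, needed for platelet dense granules (gene 76157, chromosome 10, 19847917 to 19856634), had 77.3, 75.0 and 67.5 CPM in wt LSK, 4131 counts, and 2 counts in iMLL-ENL total. The ratio was 2279 with a counting interval of 631 to 18830 (edgeR adjusted p = 8.76e-06). Rab27b, a GTPase of granule release (gene 80718), had 24.4, 18.1 and 20.7 CPM in wt LSK and 0.0927, 0 and 0 CPM in iMLL-ENL total, 2 counts from 1 library (edgeR adjusted p = 0.000111). Nbeal2, needed for alpha granules (gene 235627, chromosome 9, 110624789 to 110654161), stayed high instead, with 136, 145 and 171 CPM in wt LSK and 172, 110 and 241 CPM in iMLL-ENL total. Its groups overlapped (log2 fold change 0.37, SE 0.29, edgeR adjusted p = 0.365).

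Of 17 further granule biogenesis genes, 6 were higher, 2 lower and 9 neither, with a median of 0.39. Rab38, a dense granule GTPase, had 97.6, 137 and 134 CPM in wt LSK and at most 0.185 CPM in iMLL-ENL total (log2 fold change -10.32, SE 0.54, edgeR adjusted p = 1.43e-05). Nbea, a relative of Nbeal2, fell by 6.00 (SE 0.61, edgeR adjusted p = 0.000269), from 18.6, 14.3 and 27.7 CPM to 0.324, 0.444 and 0.0881 CPM. Lyst, the lysosomal trafficking gene of Chediak-Higashi disease, rose by 2.48 (SE 0.35, edgeR adjusted p = 0.00135), from 264, 254 and 257 CPM to 792, 1062 and 2003 CPM. Stx11, a syntaxin of granule secretion, rose by 3.67 (SE 0.35, edgeR adjusted p = 0.000196), from 3.12, 5.05 and 3.88 CPM to 32.3, 43.9 and 59.8 CPM. Both higher genes also serve granules of other blood cells, and 9 of 11 mature neutrophil markers were higher in the same libraries. Their part in these levels was not tested.

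Treml1, a receptor of alpha granule membranes (gene 71326, chromosome 17, 48359916 to 48367176), had 1.45, 5.10 and 3.26 CPM in wt LSK and 0.232, 0.0556 and 0.264 CPM in iMLL-ENL total. It fell by 3.90 (SE 0.81, edgeR adjusted p = 0.0076), with no overlap. The 3 remaining genes did not pass the filter and were low in wt LSK: Gp6, the collagen receptor, had 0 counts there, Tubb1, the platelet tubulin, at most 0.459 CPM, and Clec1b, the podoplanin receptor CLEC-2, at most 0.561 CPM. These genes of mature platelets were thus at or near the floor in both groups, except that Clec1b had 1.72 CPM in iMLL-ENL total replicate 2. Exons of Clec1b and Clec9a overlap by 184 bases, so its counts are uncertain.

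Outside the 33, platelet surface genes that were called were all lower, while secreted and enzyme genes went both ways. Of 15 tested platelet receptor genes, 11 were lower and none higher. F2r, the thrombin receptor PAR1, fell by 6.79 (SE 0.38, edgeR adjusted p = 1.84e-05), from 151, 127 and 147 CPM to 1.58, 1.33 and 0.573 CPM. Esam, a junction protein of platelets, endothelium and stem cells, had 949 wt LSK counts and 1 in iMLL-ENL total (edgeR adjusted p = 8.71e-05). Of 16 secreted and enzyme genes, 6 were lower and 4 higher. Pf4, platelet factor 4, had 2.85, 6.97 and 7.40 CPM in wt LSK and 0, 0.222 and 0.0881 CPM in iMLL-ENL total (log2 fold change -5.60, SE 0.95, edgeR adjusted p = 0.00301).

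Cavin2, a membrane coat gene of platelets, had 1223 wt LSK counts and 1 in iMLL-ENL total (edgeR adjusted p = 6.63e-05). Genes called higher included F13a1 and F5. F13a1, carried by platelets and monocytes, rose by 4.50 (SE 0.56, edgeR adjusted p = 0.000835), from 31.2, 97.5 and 30.0 CPM to 711, 886 and 1545 CPM. F5, clotting factor V, rose by 3.86 (SE 0.26, edgeR adjusted p = 5.02e-05), from 20.8, 35.4 and 21.1 CPM to 286, 357 and 356 CPM. Multimerin 1 binds factor V in platelets, and Mmrn1 was near 0 in the libraries where F5 was higher. Stem cell and LSK markers moved with the lower genes, with 9 of 10 lower and a summed level of 3367 to 3776 CPM in wt LSK and 314 to 457 CPM in iMLL-ENL total, and their part in these results was not tested. Of the markers of other lymphoid cells, 4 of 9 tested for the B lineage and 2 of 7 for T and NK cells were lower and none higher.

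The second comparison asked whether leukemic cells with much or little B220 differed in these programs. No gene of the 33 was called, among the 13 that passed the filter. Over all 12564 genes tested, edgeR called 0 (0%), with 880 at an unadjusted p under 0.05, DESeq2 called 232 and limma-voom 1. With the replicate number as a block, edgeR called 79 genes, or 0.629%, of which 73 were higher in B220 HIGH and 6 lower, and again 0 of the 33. The 13 tested had a median log2 change of 1.62 (B220 HIGH over B220 LOW) against -0.03 over all genes, with 10 fitted above 0 and 3 below.

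Of the genes tested, Itga2b and Vwf were separated between the sorts, though neither was called. Itga2b had 0.720, 0 and 0.541 CPM in B220 LOW replicates 1, 2 and 3, and 7.60, 5.38 and 4.50 CPM in B220 HIGH. Every B220 HIGH library lay above every B220 LOW library, at a log2 change of 3.81 (SE 1.32) that was not called (edgeR adjusted p = 0.585). Vwf had 0.589, 2.98 and 0.120 CPM in B220 LOW and 4.76, 4.33 and 9.001 CPM in B220 HIGH, also without overlap (log2 fold change 2.36, SE 1.22, edgeR adjusted p = 0.78). These were the 2 of 13 tested genes with every B220 HIGH library above every B220 LOW library, as in 6.2% of all genes. None of the 13 lay wholly the other way, as in 7.22% of all genes. Among genes not tested, Gp5 lay wholly the other way, while Gata1 and Slc35d3 had every B220 HIGH library above. Itga2b and Vwf reached the level of the filter (about 0.627 CPM) in 1 B220 LOW library each, so they passed it through B220 HIGH. The 2 of 13 and the median of the 13 are thus not free of the filter.

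Itgb3 had 0.327, 0.967 and 10.5 CPM in B220 LOW and 9.06, 25.0 and 36.0 CPM in B220 HIGH (log2 fold change 2.59, SE 1.19, edgeR adjusted p = 0.728, or 0.0955 with the block). The groups overlapped through B220 LOW replicate 3, while within each replicate number the B220 HIGH library was the higher one. Outside the 33, every B220 HIGH library lay above every B220 LOW library in 3 of 11 tested platelet receptor genes and in 5 of 14 secreted and enzyme genes, none of them called by edgeR. The share over all genes was 6.2%. Among them Itga2, Pf4 and Ppbp had 0 counts in at least 1 B220 LOW library, so they passed the filter through B220 HIGH. The 3 of 11 and the 5 of 14 are thus not free of the filter. Plek, which encodes the platelet protein pleckstrin, had 197, 128 and 112 CPM in B220 LOW and 405, 734 and 835 CPM in B220 HIGH (log2 fold change 2.27, SE 0.36, edgeR adjusted p = 0.132, DESeq2 adjusted p = 3.43e-07). Thbs1, thrombospondin 1 of alpha granules, had 128, 117 and 112 CPM and then 255, 550 and 723 CPM (log2 fold change 2.19, SE 0.41, edgeR adjusted p = 0.184, DESeq2 adjusted p = 1.42e-05). Both are also made by other blood cells. DESeq2 called both, while edgeR with the block called neither (adjusted p = 0.103 for Plek and 0.0589 for Thbs1). Pf4 had 2.16, 0 and 0 CPM in B220 LOW and 13.9, 9.32 and 10.4 CPM in B220 HIGH (log2 fold change 4.09, SE 1.63, edgeR adjusted p = 0.669). Ppbp, which encodes a platelet chemokine, had 2.49, 0 and 0 CPM and then 38.9, 3.09 and 8.19 CPM (log2 fold change 4.38, SE 1.75, edgeR adjusted p = 0.676). All 4 genes were singled out after their values were seen. Of the other receptor subunits, Gp1ba had 0, 2.08 and 1.02 CPM in B220 LOW and 1.46, 1.10 and 0 CPM in B220 HIGH, with overlapping groups. Gp9 had at most 0.601 CPM in any of the 6 libraries.

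**Figure D4:**
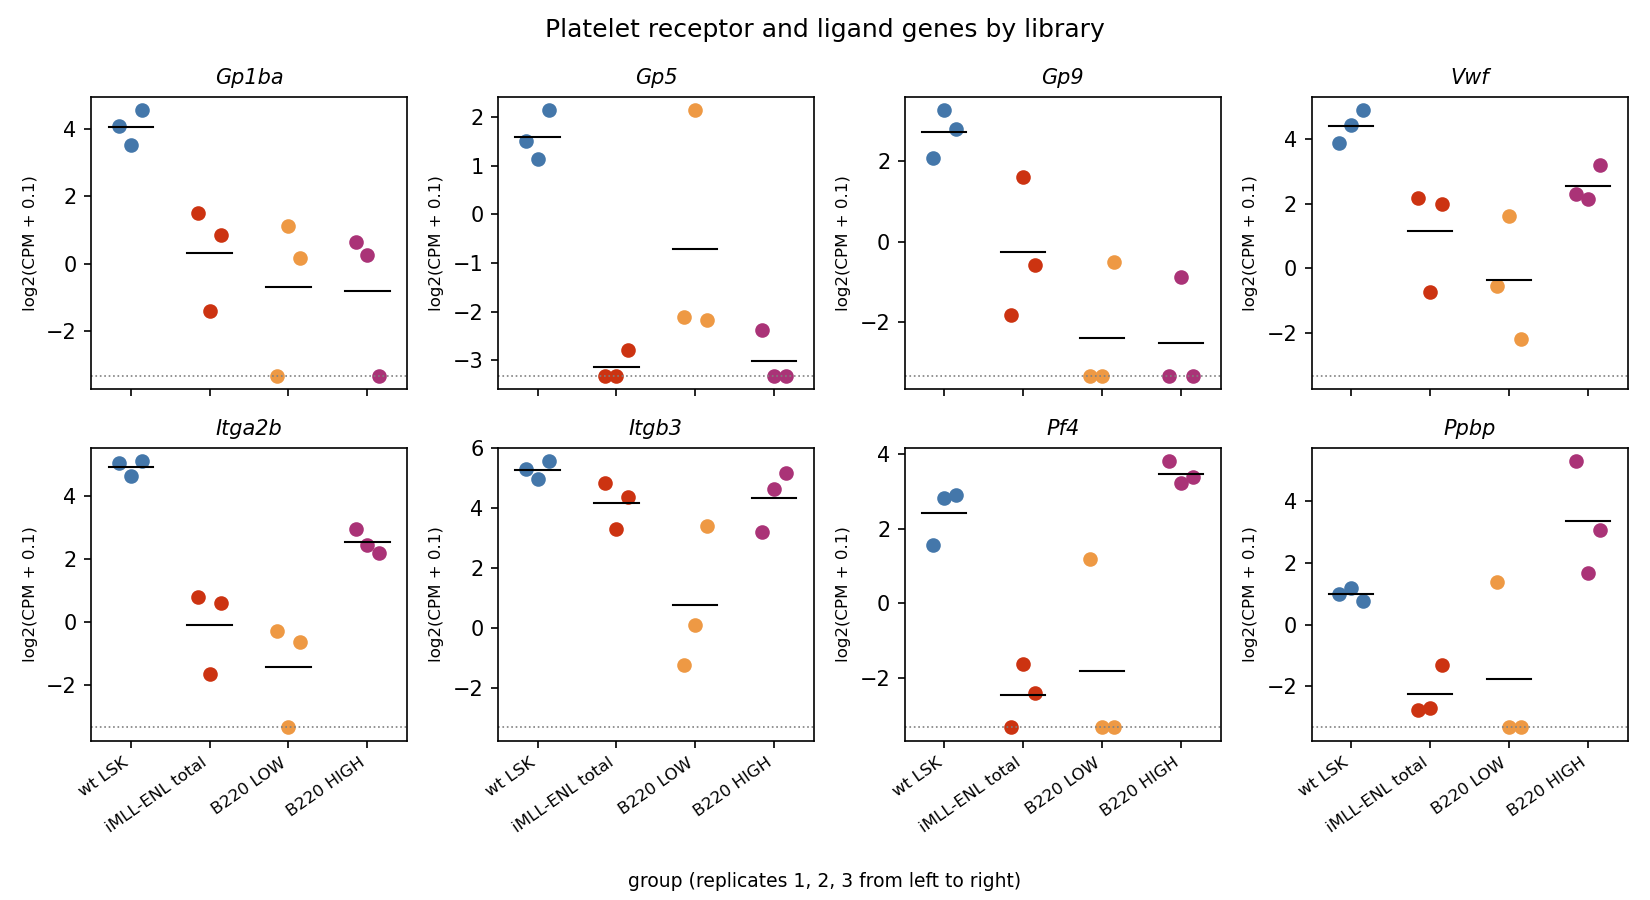
Levels of 6 of the 33 genes and of Pf4 and Ppbp as log2(CPM + 0.1), with 1 point per library, a black line at the mean of the 3 libraries and a dotted line at 0 CPM. All 8 genes are above the dotted line in every wt LSK library, and Itga2b, Vwf, Pf4 and Ppbp have every B220 HIGH library above every B220 LOW library.

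Gata1, Gfi1b and Zfpm1 were low in most libraries of both sorts. Gata1 did not pass the filter: it had 0 counts in B220 LOW and 0.824, 0.0498 and 0.404 CPM in B220 HIGH, 18 counts in all. With the 0 set to 3 counts, B220 HIGH was 5.36-fold higher. Gfi1b had 0, 0.0744 and 5.05 CPM in B220 LOW and 0.458, 3.39 and 11.5 CPM in B220 HIGH (log2 fold change 1.63, SE 1.85, edgeR adjusted p = 0.929). Zfpm1 had 2.62, 0.223 and 0.241 CPM in B220 LOW and 10.4, 0.448 and 1.97 CPM in B220 HIGH (log2 fold change 2.09, SE 1.46, edgeR adjusted p = 0.865). In each of the 3 factors the spread between libraries of 1 sort was large, and in Gfi1b and Zfpm1 the groups overlapped, while within each replicate number the B220 HIGH library was the higher one. With the block neither was called (edgeR adjusted p = 0.376 and 0.52).

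GATA1, GATA2 and GFI1B also act in mast cells, basophils or eosinophils, and markers of those cells differed between the sorts. The summed level of 9 such markers was 1289, 125 and 1309 CPM in B220 HIGH replicates 1, 2 and 3, and 25.0, 38.5 and 64.3 CPM in B220 LOW. In 5 of the 7 tested, every B220 HIGH library lay above every B220 LOW library, as in 6.2% of all genes. The main fit called none of the 7. With the block 3 were called (Cpa3, Prg2 and Epx), against 0.629% of all genes. These 3 and Il1rl1 had 0 counts in at least 1 B220 LOW library, so they passed the filter through B220 HIGH. The 5 of 7 and the 3 calls are thus not free of the filter. Hdc, the histamine synthesis gene, had 4.98, 11.8 and 5.77 CPM in B220 LOW and 252, 53.2 and 306 CPM in B220 HIGH. Neither fit called Hdc (edgeR adjusted p = 0.126, or 0.214 with the block). Epx, the eosinophil peroxidase gene, had 0.786, 0 and 0.782 CPM and then 28.6, 3.14 and 32.3 CPM (edgeR adjusted p = 0.363, or 0.02 with the block). The other tested markers, Mcpt8 and Ms4a2, overlapped between the sorts (log2 fold change -0.15 and 1.1, edgeR adjusted p = 0.987 and 0.886). Gata2 had 25.7, 17.9 and 72.3 CPM and then 334, 29.4 and 389 CPM. B220 HIGH replicates 1 and 3 were the high libraries for Gata1, Zfpm1, Gata2, Hdc and Epx. Gfi1b was lowest in replicate 1, the basophil marker Mcpt8 was high in replicate 1 alone (39.6, 5.08 and 6.17 CPM), and Itga2b was similar in all 3. The part of such cells in these levels was not tested.

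**Figure D5:**
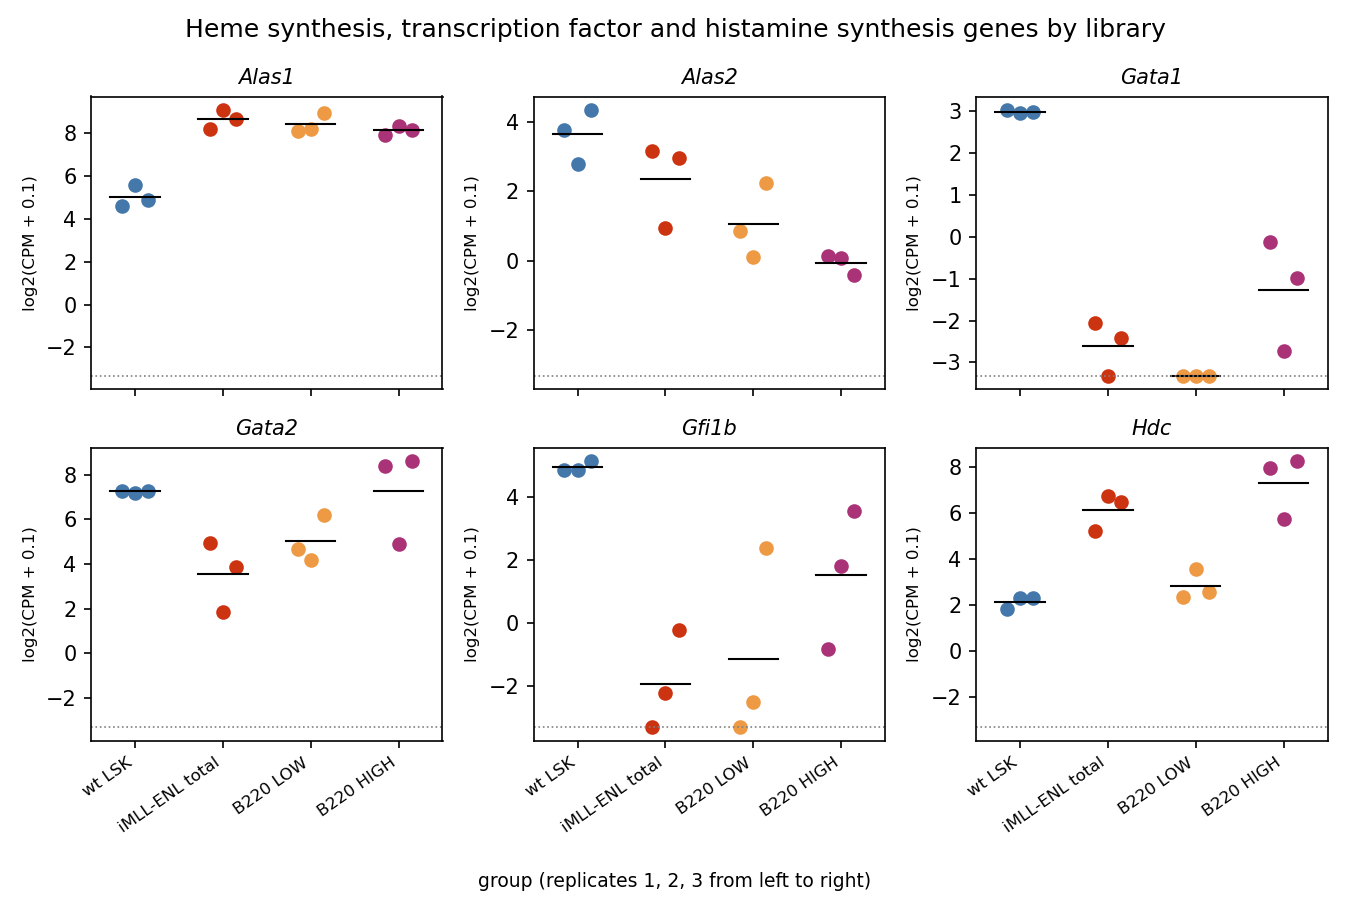
Levels of 6 genes as log2(CPM + 0.1), with 1 point per library, a black line at the mean of the 3 libraries and a dotted line at 0 CPM: Alas1 and Alas2 (heme synthesis), Gata1, Gata2 and Gfi1b (transcription factors) and Hdc (histamine synthesis). Alas1 is higher in every leukemic library than in any wt LSK library, Gata1 is at 0 in all B220 LOW libraries, and B220 HIGH replicates 1 and 3 are the high ones for Gata2 and Hdc.

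For the abundant genes no difference between the sorts was called. Tfrc had 449, 410 and 277 CPM in B220 LOW and 436, 526 and 258 CPM in B220 HIGH (log2 fold change 0.15, SE 0.29, edgeR adjusted p = 0.966). Nfe2 had 98.5, 124 and 74.5 CPM and then 136, 100 and 79.0 CPM (log2 fold change 0.11, SE 0.28, edgeR adjusted p = 0.976). Nbeal2 had 66.7, 36.8 and 39.8 CPM and then 98.2, 52.3 and 55.0 CPM (log2 fold change 0.56, SE 0.33, edgeR adjusted p = 0.807). In all 3 genes the groups overlapped. For Nbeal2 the B220 HIGH library was the higher one within each replicate number, without a call with the block (edgeR adjusted p = 0.425). Alas2 was low in both sorts, with 1.70, 0.967 and 4.63 CPM in B220 LOW and 1.01, 0.947 and 0.657 CPM in B220 HIGH. Its log2 fold change was -1.48 (SE 1.11, edgeR adjusted p = 0.873, or 0.777 with the block). Within each replicate number Alas2 was lower in B220 HIGH, while Alas1 had 277 to 485 and 241 to 324 CPM.

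Some genes varied widely within a sort. Car2 had 0.917, 8.33 and 1.20 CPM in B220 LOW and 7.78, 26.8 and 0.404 CPM in B220 HIGH (log2 fold change 1.75, SE 1.36, edgeR adjusted p = 0.873), and the highest library of each sort was replicate 2. That number also held the highest Hemgn level, 4.29 CPM in B220 HIGH replicate 2, against at most 0.421 CPM in the other sorted libraries. B220 HIGH replicate 2 also stood apart in markers of lymphoid cells: 10 B lineage markers summed to 110 CPM there, against 10.3 to 17.1 CPM in the other 5 sorted libraries, and 8 T and NK cell markers to 45.9 CPM, against 0.902 to 2.23 CPM. Their part in the levels of Car2 and Hemgn was not tested. Treml1 had 4.52 CPM in B220 LOW replicate 1, which held all 69 of its B220 LOW counts, and at most 0.0916 CPM elsewhere in the sorts. The ratio of B220 LOW to B220 HIGH was 38.6 (counting interval 10.3 to 325). Gp5 had 4.32 CPM in B220 LOW replicate 2, the other 5 sorted libraries lying at or below 0.131 CPM. Its ratio of B220 LOW to B220 HIGH was 69.4 (counting interval 12.01 to 2786). Both ratios rest mainly on 1 library, and Gata1 and Slc35d3 went the other way. Clec1b had 0, 6.55 and 3.25 CPM in B220 LOW and 0, 0.947 and 0 CPM in B220 HIGH (log2 fold change -3.28, SE 2.14, edgeR adjusted p = 0.85). Rab27b reached 2.38 CPM in B220 HIGH replicate 1 and was at most 0.601 CPM in the rest.

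The remaining genes were low in both sorts. Hbb-bs, Slc4a1 and Rhag had 0 counts in all 6 sorted libraries, and Hba-a2, Car1, Gp6, Mmrn1, Tubb1, Trim10 and Slc35d3 had at most 12 counts in either group. For Slc35d3 these were 0 counts in B220 LOW and 12 in B220 HIGH, spread over all 3 libraries at 0.183, 0.299 and 0.202 CPM. With the 0 set to 3 counts, B220 HIGH was 3.57-fold higher. Klf1 had 0.458, 1.19 and 0.241 CPM in B220 LOW and 0, 0 and 0.759 CPM in B220 HIGH. Epor had 17 counts in B220 LOW, all from replicate 1, and 3 in B220 HIGH, also all from replicate 1. Ank1 and Ermap had at most 0.842 CPM in any sorted library.

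Across the 4 groups, a mean of at least 1 CPM was reached by 26 of the 33 genes in wt LSK, 10 in iMLL-ENL total, 14 in B220 LOW and 11 in B220 HIGH, and of at least 5 CPM by 19, 6, 3 and 9. The summed level of the 18 erythroid genes was 990 to 1088 CPM in wt LSK libraries, 317 to 411 in those of iMLL-ENL total, 364 to 555 in those of B220 LOW and 354 to 662 in those of B220 HIGH. Car2 alone gave 529 to 593 CPM of the wt LSK sum, and in the leukemic groups Tfrc and Nfe2 made up nearly all of it. The 15 megakaryocyte and platelet genes summed to 441 to 526 CPM in wt LSK and 134 to 281 in iMLL-ENL total, against 58.5 to 73.3 for B220 LOW and 107 to 125 for B220 HIGH. Nbeal2 alone made up most of this sum in every library of iMLL-ENL total and B220 LOW, and was its largest part in every other library. The sorted groups stand in another count table than the first 2 groups, so these levels are set side by side with no test.

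Per kilobase of deposited gene width, the order of levels within wt LSK was led by Car2 (319 CPM per kilobase), Tfrc (39.0), Nfe2 (38.1), Slc35d3 (27.9), Mmrn1 (22.9), Hemgn (17.2), Nbeal2 (17.1) and Gfi1b (16.9). In iMLL-ENL total the order was Tfrc (43.0), Nfe2 (41.5) and Nbeal2 (19.8), followed by Itgb3 (3.33), Alas2 (3.10) and Gp1bb (3.07). In both sorts the same 3 led: Tfrc (68.3), Nfe2 (35.5) and Nbeal2 (5.42) in B220 LOW, and Tfrc (73.3), Nfe2 (37.6) and Nbeal2 (7.78) in B220 HIGH, where Car2 (6.51) followed with libraries that overlapped those of Nbeal2. By their single libraries, Tfrc and Nfe2 in both groups of the first table, Hemgn, Nbeal2 and Gfi1b in wt LSK, and Itgb3, Alas2 and Gp1bb in iMLL-ENL total overlapped, so these neighbours cannot be ordered. All 3 genes that led in leukemic cells are also used outside the red cell and platelet lineages.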

How the data were processed

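The authors deposited read counts for each NCBI gene ID in 2 tables of 24028 genes: wt LSK with iMLL-ENL total, and B220 HIGH with B220 LOW. The deposited tables also give a gene width in bases (unit: other), used only for levels per kilobase. Deposited CPM tables were not used. RNA came from a PicoPure kit and an unstranded NuGen Ovation kit, per the labels' protocols. Builds GRCm38 and mm10 and the tool edgeR appear in the submitters' processing notes; an aligner or counter is not given in the sources used here. RefSeq gave symbols for 23968 IDs, and GENCODE exons (GRCm38) gave overlaps.

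Each table was fitted on its own with edgeR 4.0.16 in R 4.3.3: TMM factors, filterByExpr with a minimum count of 10, the robust quasi-likelihood F test, two-sided, with Benjamini-Hochberg adjustment over all genes tested. Groups were taken from the labels. Alternatives used DESeq2 1.42.0, limma 3.58.1 (voom), other scaling and filters, a fold change of at least 2, a replicate block, and leaving out each library. The scripts were tested on simulated data. Libraries of 1 group differed far beyond sampling noise (chi-square per degree of freedom of 28.3 to 175).

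The 33 genes and the other lists were chosen with earlier results of these data known. Values in every library were given for genes of the 33 called in either comparison or with a group mean of at least 5 CPM, up to 2 called genes per direction of each other erythroid or platelet list by smallest p (marker lists of other cells are given by counts or sums), sort and fusion genes, and neighbours with shared exons. A few genes that this takes are not reported here. Hdc, Epx, Gata2, Plek, Thbs1, Pf4, Ppbp, Col1a1, Mcpt8, Alas1 and Cdh5 fell outside that rule at least in part and were picked with their values in view. For B220 HIGH and B220 LOW, each library's departure from its group mean correlated with that of the library of the same number at 0.397, 0.198 and 0.307. By this check, and not by the labels, the numbers appear to pair these libraries, though 3 libraries per group are too few to settle it. The main fit has no block, so values for the sorts come from the unpaired fit unless the block is named.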

Additional observations from a re-analysis of the deposited data

How the results depend on the processing

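Of the 20 genes of the 33 called in iMLL-ENL total against wt LSK, 14 were called in every alternative that tested them, and Klf1, Epor, Ank1, Ermap, Vwf and Gp1bb lost the call in at least 1. The number called higher, 1 with the main settings, was 0 with a filter of 50 counts in 3 libraries, limma-voom, a required fold of at least 2 and the replicate block, and 0 to 1 when single libraries were left out. The number called lower, 19, was 14 with the stricter filter, which tests fewer genes, 18 where a fold of at least 2 was required, and 14 (without wt LSK replicate 3) to 21 when single libraries were left out. Genes called over the whole table, 4221, came to 2047 where a fold of at least 2 was required and to 2636 to 4528 when single libraries were left out. Between wt LSK and iMLL-ENL total, deviations of same-numbered libraries correlated at 0.0164, 0.160 and -0.0363, and no pairing by number was seen. The replicate block gave 4048 calls, with 21 of the 33 lower, Gp9 (-2.97, adjusted p = 0.0238) and Itgb3 (-0.96, 0.045) among them, and Gp1bb not called (2.51, 0.0828).

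In B220 HIGH against B220 LOW, 0 of the 33 were called under all 14 alternatives. Over the whole table, 22 genes were called with no filter, 232 with DESeq2, 1 with limma-voom, 79 with the replicate block, and 0 to 96 (without B220 HIGH replicate 1) when single libraries were left out. The cause was not tested. Leaving out 1 library turned the direction of values that were not called, with the far end over all alternatives in brackets: Nbeal2 in iMLL-ENL total against wt LSK (to -0.0185, highest 0.63), and in the sorts Tfrc (to -0.0930, highest 0.39), Nfe2 (to -0.0309, highest 0.33), Gp1ba (up to 0.61, lowest -0.94) and Gp1bb (to -0.71, highest 2.71). At this depth a gene with 0 counts in 3 libraries may still lie at up to 0.0482 to 0.0662 CPM.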
